A study of Oryza sativa Japonica Group with 4 samples.

Results

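The ribosome of the cytosol is built from a small (40S) and a large (60S) subunit. The 40S subunit binds the mRNA and the initiator tRNA and reads the codons, while the 60S subunit joins the amino acids. Its proteins are made in nearly equal amounts in every growing cell. In plants most of them are encoded by several near-copies of a gene, called paralogs here. In filling rice endosperm, this machinery makes the storage proteins of the grain. The members described here were the transcript models whose description in the deposited table held both "40S" and "ribosomal protein" and neither "ubiquitin" nor "60S". There were 70 such models of 67393 in all. They belonged to 56 of 56797 genes and to 23 protein families. No model was described as 40S protein S2, S8, S11, S12, S14, S16, S18, S20 or SA, so these families were not analysed here. The rule used the description alone and no measured value.

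Plants of the japonica rice Nipponbare were all grown at control temperature, 28°C in a 12-h day and 22°C at night. They were moved 5 days after pollination to a climate room at 35°C by day and 28°C by night (high temperature) or to one at 28°C and 22°C (control), and were sampled 5 days later. Poly(A) RNA was sequenced in 2 libraries per temperature, numbered replicates 1 and 2. The labels name the tissue as endosperm, while the study's methods say that seeds were collected and that RNA was extracted from endosperm. The labels do not say that replicates came from separate plants, so p-values measure only the spread between these libraries. Temperature is the single labelled difference, and no batch is given. Values of single members are given below in the order control replicate 1, control replicate 2, then high temperature replicate 1, high temperature replicate 2.

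Read counts summed to between 6395533 and 11492692 per library. Starchy endosperm markers (86 transcripts of glutelins, prolamins and starch enzymes) took between 24.3% and 41.3% of the reads of a library. Markers of embryo and aleurone (41 transcripts, of which 5 or 6 were at 0 in each library) took between 0.146% and 0.222%, and markers of green pericarp (104 transcripts, 4 to 12 at 0) between 0.152% and 0.293%. A pair of transcripts without a known function (LOC_Os09g00999.1, LOC_Os09g01000.1) held 8.51% and 25.9% of the control reads, and 35.2% and 10.05% at high temperature. Because such shares change the total to which all other reads are set, levels are given below on more than 1 scale.

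Reads were found for 68 of the 70 members, in every library. The 2 members without reads were LOC_Os02g21900.1, described as S7, and LOC_Os10g20910.1, described as S23. All 68 members with reads passed the filter on low counts. RPKM is the number of reads per kilobase of transcript, set to the same total of reads in every library, and it was computed from the reads in all 4 libraries. The mean RPKM of the 68 over the libraries ran from 1.74 to 204.8, with a median of 39.6. Reads per member had a median of 677.5 and 182.5 in the controls, and of 173.5 and 211 at high temperature. Models of the same gene overlap in their exons, and near-copies of a gene share sequence, so the counts of such members are not separate measurements.

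The transcripts of the 40S proteins were most abundant in control replicate 1. The median RPKM of the 68 was 67.9 and 26.2 in the controls, and 27.9 and 39.2 at high temperature. The controls lay on either side of both high temperature libraries. In bulk RNA, fewer cells of a type and less RNA per cell cannot be told apart. Control replicate 1 had the highest RPKM for 67 of the 68, against 48.1% of all transcripts with reads and 60.9% of those with a mean of at least 50 reads. The ratio of control replicate 1 to control replicate 2 ran from 1.05 to 7.504, with a median of 2.59. In 64 of the 68, control replicate 1 came first and high temperature replicate 2 second.

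**Figure D1:**
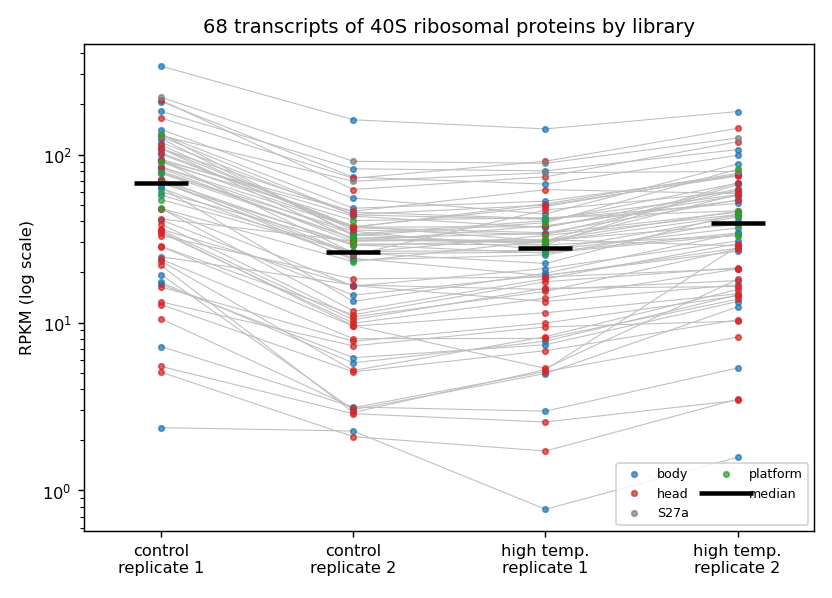
RPKM (log scale) of the 68 transcripts of 40S ribosomal proteins with reads, by library; each point is a transcript coloured by its place in the subunit, grey lines join the same transcript and black bars are medians. The medians are 67.9 and 26.2 in the controls, and 27.9 and 39.2 at high temperature, and almost every line falls from the first library to the second.

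Added up, the reads of the 70 members made 0.477% (95% Wilson interval 0.473 to 0.481) and 0.187% (0.184 to 0.190) of the control reads. At high temperature they made 0.197% (0.194 to 0.201) and 0.287% (0.283 to 0.291). These intervals cover counting error only. The intervals of the controls did not meet, and both high temperature libraries lay between them. When the pair of most-read transcripts was taken out of the totals, the members summed to 5217 and 2529 CPM in the controls, and to 3048 and 3193 CPM at high temperature, where CPM is the count scaled to a fixed total. The order of the controls was the same, and the high temperature libraries came within 1.05 times of each other. After TMM normalization (edgeR's scaling by the bulk of the transcripts), the sums were 3617 and 2477 CPM in the controls and 2216 and 2553 at high temperature. Control replicate 1 was then highest for 59 of the 68, against 25.5% of all transcripts tested.

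Other values differed between the same libraries. The pair of most-read transcripts had its lowest shares in control replicate 1 and high temperature replicate 2, the libraries highest in 40S transcripts. The embryo and aleurone markers stood in the reverse order of the 40S sums, at 1464 and 2217 CPM of raw reads in the controls and 1904 and 1724 at high temperature. The other marker lists stood neither in the order of the 40S sums nor in its reverse. Green pericarp markers summed to 2394 and 1786 CPM in the controls, and to 2935 and 1522 at high temperature. Starchy endosperm markers took 38.1% and 37.9% of the control reads, and 24.3% and 41.3% at high temperature. The part of these differences in the level of 40S transcripts was not tested. The 40S sum of control replicate 1 was 2.55 times that of control replicate 2 in CPM of raw reads, 2.06 times with the pair left out of the totals, and 1.46 times after TMM normalization.

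The most abundant member was the S4 transcript LOC_Os02g01560.1, of a protein on the body of the subunit that touches the ribosomal RNA. Its RPKM was 335.8 and 161.0 in the controls, and 142.1 and 180.2 at high temperature. Control replicate 1 stood apart, and control replicate 2 lay between the high temperature libraries. Next came the S27a transcript LOC_Os05g06770.1, with 219.0, 91.1, 88.6 and 125.4 in the same order. S27a is made as a fusion with ubiquitin, which is cut off to release the ribosomal protein. The second S27a gene, LOC_Os01g22490.1, had 129.3, 69.4, 77.9 and 79.3, so its high temperature libraries lay between the controls.

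The S28 transcript LOC_Os10g27174.1, of a head protein beside the mRNA, had an RPKM of 164.8 and 72.2 in the controls, and of 91.2 and 143.1 at high temperature. The S19 transcript LOC_Os03g31090.1, another head protein, had 210.3, 61.9, 73.7 and 119.1. For both, the controls enclosed the high temperature libraries. S6 is a protein of the body that is phosphorylated downstream of the TOR kinase in plants, and its transcript LOC_Os07g42950.1 had 180.6, 82.2, 80.0 and 107.0. S23 lies at the decoding centre, where codon and anticodon meet. Its transcripts were LOC_Os01g61814.1, with 206.5, 73.3, 66.7 and 98.9, and LOC_Os03g60400.1, with 140.8, 55.0, 44.2 and 87.8. In each of these 3 transcripts control replicate 2 lay between the high temperature libraries.

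Whether high temperature changed the transcripts of the 40S proteins was tested by edgeR's quasi-likelihood method on the counts of all 27358 transcripts that reached 1 CPM in 2 or more libraries. None of the 68 members passed the threshold of 0.05 after Benjamini-Hochberg adjustment over all transcripts, with 0% called among all transcripts tested. Their adjusted p-values ran from 0.687 to 0.999. At an unadjusted p under 0.05 there were 2 members, against 6.94% of all transcripts tested. Both were lower at high temperature, as were 2.79% of all transcripts at this level. DESeq2 also called 0 of the 68, with 0 at an unadjusted p under 0.05. The count at an unadjusted p under 0.05 moved as single libraries were left out. It was highest without control replicate 2, where the median log2 fold change of the members was -0.62.

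The log2 fold changes of high temperature against control ran from -1.01 to 0.46, with a median of -0.35 over the 68 and of 0.0023 over all transcripts tested. The value was below 0 for 57 members and above 0 for 11, against 49.8% below 0 among all transcripts. The standard errors (SE) of single members had a median of 0.33. This lean toward lower values rested on control replicate 1. Without that library the median was -0.012, and 35 of the 67 members then tested lay below 0, against 49.1% of all transcripts. Without control replicate 2 the median was -0.62, with 67 of 68 below 0. It was -0.23 when high temperature replicate 1 was left out and -0.49 when replicate 2 was. None of these fits called a member.

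**Figure D2:**
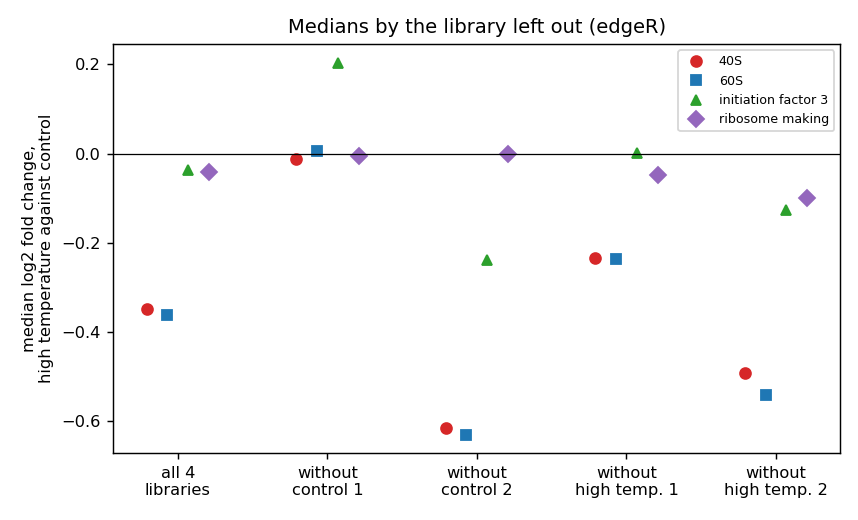
Median log2 fold change (vertical axis, high temperature against control, edgeR) of the transcripts of 40S proteins, 60S proteins, initiation factor 3 and ribosome making, with all 4 libraries and without each library in turn. The 40S median is -0.35 with all libraries, -0.012 without control replicate 1 and -0.62 without control replicate 2, and the 60S median stays beside it.

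In 52 of the 68 members the log2 difference between the controls, in TMM-normalized CPM, was larger than the size of the log2 fold change of temperature, against 59.8% of all transcripts tested with reads in every library. A difference between 2 libraries varies more than one between 2 means, so this count is a description. Its median, replicate 1 against replicate 2, was 0.57. The corresponding median for high temperature replicate 2 against replicate 1 was 0.24.

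Both high temperature libraries lay below both controls in 23 members and above both in 1, after TMM normalization. Among all transcripts tested, 17.7% lay below and 19.1% above. The groups overlapped in the other 44 members. The count of 23 belongs to this scaling. With totals of the libraries in place of TMM factors it was 1, and with totals without the pair of most-read transcripts it was 4. Without control replicate 2 it was 61, and without high temperature replicate 2 it was 38. With a single library left at a temperature, separation is easier, so these counts cannot be set against 23 or 17.7%. The shares of all transcripts were not computed under these other scalings and fits.

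The 40S subunit is divided into a head, a platform and a body. The head forms the upper side of the tRNA sites, and its 29 members had a median log2 fold change of -0.21, with 22 below 0 and 7 above. The 30 tested members of the body, which carries the mRNA entry and the decoding centre, had a median of -0.41, with 28 below 0 and 2 above. The platform, at the mRNA exit, had 7 members of families S3a and S26, with a median of -0.46, 5 below 0 and 2 above. Both S27a members lay below 0, at -0.44 and -0.26. Within each place the values spread by more than the places differed, and the difference between places was not tested.

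**Figure D3:**
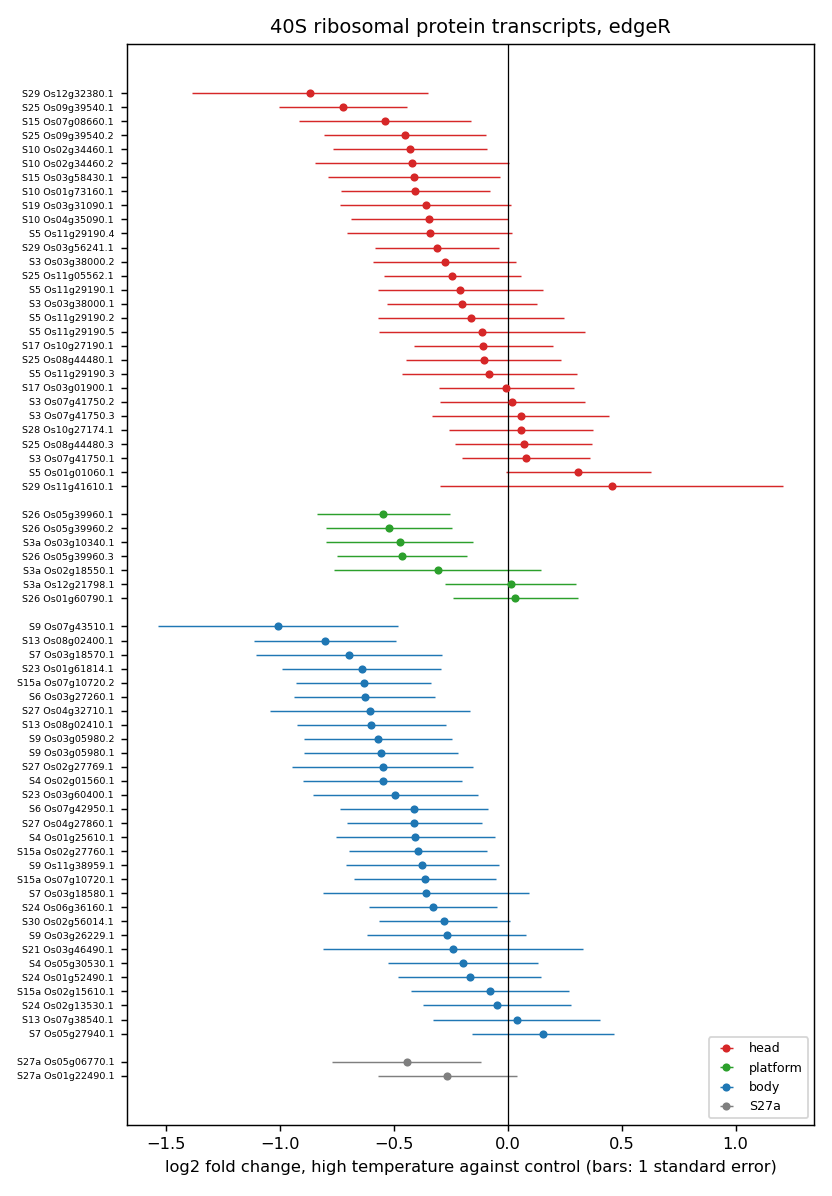
Log2 fold change (horizontal axis, high temperature against control, edgeR) of the 68 transcripts of 40S proteins, ordered within head, platform, body and S27a; bars are 1 standard error. The values run from -1.01 to 0.46, and none has an adjusted p under 0.05.

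The member with the lowest p was the S13 transcript LOC_Os08g02400.1, of a body protein that binds ribosomal RNA. It had 41.6 and 27.7 TMM-normalized CPM in the controls, and 18.5 and 21.4 at high temperature. The groups did not overlap, and the controls differed by more than the high temperature libraries. Its log2 fold change was -0.80 (SE 0.31, adjusted p = 0.687, edgeR), from -1.06 to -0.48 as single libraries were left out. The other S13 genes gave different values. On the log2 scale LOC_Os08g02410.1 differed by -0.60 and LOC_Os07g38540.1 by 0.041.

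The S25 transcript LOC_Os09g39540.1 was second. S25 is a head protein that some viral RNAs need for initiation in yeast and human cells. The transcript had 16.9 and 13.7 TMM-normalized CPM in the controls, and 9.34 and 9.31 at high temperature, so the groups did not overlap. Its log2 fold change was -0.72 (SE 0.28, adjusted p = 0.690, edgeR). A second model of the same gene, LOC_Os09g39540.2, had -0.45 with groups that overlapped. The other S25 genes had -0.10 (LOC_Os08g44480.1), 0.071 (LOC_Os08g44480.3) and -0.24 (LOC_Os11g05562.1).

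In the other 4 of the 6 members with the lowest p, both high temperature libraries were below the controls in TMM-normalized CPM. The S9 transcript among them is given further on. The S15a transcript LOC_Os07g10720.2 had 46.2 and 36.3 in the controls, and 23.7 and 29.6 at high temperature. S15a is a body protein that binds ribosomal RNA. The S6 transcript LOC_Os03g27260.1 had 90.3 and 66.1 against 51.3 and 50.05, and the S26 transcript LOC_Os05g39960.2 had 43.1 and 36.4 against 27.6 and 27.9. Their log2 fold changes were -0.63, -0.63 and -0.52, with standard errors of 0.30, 0.31 and 0.28. The adjusted p-values were 0.737, 0.755 and 0.787 (edgeR), and control replicate 1 was the highest library in each. The other model of the S15a gene, LOC_Os07g10720.1, had a log2 fold change of -0.36 with groups that overlapped.

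The largest negative log2 fold change, -1.01 (SE 0.53, adjusted p = 0.780, edgeR), belonged to the scarcest member, the S9 transcript LOC_Os07g43510.1. S9 lies at the entry of the mRNA channel. It had 27 and 18 reads in the controls, and 6 and 10 at high temperature. The groups did not overlap in TMM-normalized CPM (1.78 and 2.97 against 0.862 and 1.39), but at this depth the value is imprecise. The S29 transcript LOC_Os12g32380.1, of a zinc-binding head protein, had 8.24 and 3.96 TMM-normalized CPM in the controls and 1.87 and 5.005 at high temperature. Its log2 fold change was -0.87 (SE 0.52, adjusted p = 0.815, edgeR). Its groups overlapped, and the value was -0.20 without control replicate 1 and -1.78 without high temperature replicate 2.

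Among the 11 members above 0, the largest value came from another S29 gene, LOC_Os11g41610.1, with 43, 4, 7 and 31 reads. Its log2 fold change was 0.46 (SE 0.75, adjusted p = 0.95, edgeR), and each temperature had a high and a low library. The S5 transcript LOC_Os01g01060.1 was the member with both high temperature libraries above the controls. S5 is a head protein near the exit site of tRNA. It had 47.7 and 30.7 TMM-normalized CPM in the controls and 48.3 and 49.2 at high temperature. The log2 fold change was 0.31 (SE 0.32, adjusted p = 0.904, edgeR). Control replicate 1 lay close to the high temperature libraries, and the value was 0.028 without control replicate 2 and 0.66 without control replicate 1. The S7 transcript LOC_Os05g27940.1 had 72.4 and 55.2 in the controls and 64.6 and 77.7 at high temperature. Its groups overlapped, and its log2 fold change was 0.16 (SE 0.31, adjusted p = 0.959, edgeR), with -0.026 when control replicate 2 was left out.

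Paralogs of a family were compared by the share of the reads of the family that each gene took in a library, with the transcript model of each gene that had the most reads. Such a share does not depend on the scaling between libraries. In 19 families 2 or more genes had reads, and S19, S21, S28 and S30 had a single gene. In 15 of the 19 the same gene led in every library. The leading gene took from 39.4% to 88.8% of its family, and it also had the transcript with the highest mean RPKM in 18 of the 19, all but S15. Families led by 1 gene with at least 3 in 4 of the reads were S17 (LOC_Os10g27190, 88.8%), S3 (LOC_Os03g38000, 82.8%), S10 (LOC_Os04g35090, 78.9%) and S4 (LOC_Os02g01560, 76.3%). S3 lies at the mRNA entry and S10 on the head.

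The lead was smaller in the other families. It was held by LOC_Os07g42950 in S6 (67.3%), LOC_Os03g56241 in S29 (62.1%), LOC_Os01g01060 in S5 (61.4%), LOC_Os08g02410 in S13 (61.2%) and LOC_Os05g06770 in S27a (59.0%). In S25 it was LOC_Os08g44480 (58.1%), in S26 LOC_Os05g39960 (57.1%), in S23 LOC_Os01g61814 (55.6%), in S9 LOC_Os11g38959 (55.0%) and in S7 LOC_Os05g27940 (50.7%). In S5 and S9 the leading gene rested on the use of a single model per gene. With the reads of all models of a gene added, LOC_Os11g29190 in S5 and LOC_Os03g05980 in S9 had the most reads in every library. Models overlap in their exons, so such a sum may count the same reads more than once. The lead was 50.4% or less in S15 (LOC_Os03g58430, 50.4%), S24 (LOC_Os02g13530, 49.4%), S15a (LOC_Os07g10720, 47.3%), S27 (LOC_Os04g32710, 44.8%) and S3a (LOC_Os02g18550, 39.4%). The share of the leading gene moved by a median of 6.66 percentage points between its lowest and its highest library.

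**Figure D4:**
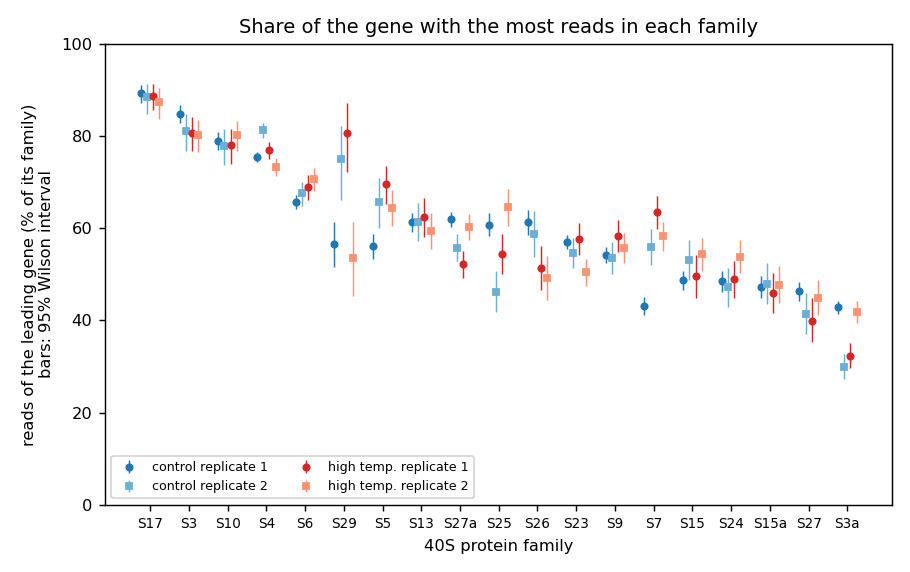
Share of the reads of each of 19 protein families (vertical axis, percent) taken by the leading gene, by library; bars are 95% Wilson intervals. Over all libraries the shares run from 88.8% in S17 to 39.4% in S3a, and those of S29, S7, S25 and S5 move most between libraries.

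The families described next were chosen after their values were seen. In S7, a body protein, LOC_Os05g27940 took 43.1% (95% Wilson interval 41.2 to 45.0) and 55.9% (51.9 to 59.9) in the controls, and 63.5% (59.9 to 66.9) and 58.2% (55.1 to 61.3) at high temperature. The interval of high temperature replicate 2 overlapped that of control replicate 2. The controls differed by 12.9 percentage points and the means of the temperatures by 11.3. In S26, a platform protein that touches the mRNA near its exit, LOC_Os05g39960 took 61.3% (58.5 to 64.0) and 58.9% (53.9 to 63.7) in the controls. It took 51.4% (46.7 to 56.2) and 49.1% (44.3 to 54.0) at high temperature. The intervals of both high temperature libraries overlapped that of control replicate 2. With the short model of this gene, which had the highest RPKM, its share over all libraries was 48.1%, and LOC_Os01g60790 led the family. The share of the leading gene was higher in both high temperature libraries than in both controls in S7, S6, S9 and S24, lower in S26 and S3, and overlapping in the other families. With 2 libraries per temperature a two-sided exact permutation test cannot go below p = 0.333, so none was made. The same fraction, 0.333, of families would be expected to separate if libraries were assigned to the groups at random. The 4 families above and 2 below, of 19, are near that fraction.

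The controls differed by more than the means of the temperatures in 13 of the 19 families, S7 included. The gap between the controls was widest, apart from S7, in S29, S25 and S3a. In S29 the share of LOC_Os03g56241 was 56.5% (51.5 to 61.3) and 75.0% (66.2 to 82.1) in the controls, and 80.8% (72.2 to 87.2) and 53.5% (45.3 to 61.4) at high temperature. In S25 the share of LOC_Os08g44480 was 60.7% (58.2 to 63.2) and 46.2% (41.7 to 50.8) in the controls, and 54.5% (50.1 to 58.7) and 64.6% (60.5 to 68.5) at high temperature. In S3a, a platform protein, LOC_Os02g18550 took 42.8% (41.4 to 44.3) and 29.98% (27.3 to 32.8), then 32.4% (29.7 to 35.1) and 41.8% (39.4 to 44.3). In S25 and S3a, control replicate 1 and high temperature replicate 2 were the high libraries, and in S29 they were the low ones.

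Of the 56 genes, 9 had more than 1 transcript model among the members. The 5 models of the S5 gene LOC_Os11g29190 had log2 fold changes from -0.34 to -0.080, and the 3 models of the S26 gene LOC_Os05g39960 had -0.54, -0.52 and -0.46. The other S26 gene, LOC_Os01g60790.1, had 0.034. When reads were summed per gene, the median log2 fold change of the 54 genes with reads was -0.36, with 46 below 0.

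Stable expression, a question of the study, was described by the coefficient of variation (CV, the SD divided by the mean) over the 4 libraries, with a limit of 0.2. Of the 68 members, 1 had a CV of RPKM below 0.2, against 8.83% of all transcripts with reads and 16.2% of those with a mean of at least 50 reads. CVs lay between 0.174 and 0.854, and their median was 0.478. The count depended on the scaling and on single libraries. It was 18 after TMM factors were applied, against 33.1% of all transcripts tested, 19 without control replicate 1 and 0 without high temperature replicate 1. A CV over fewer libraries cannot be set against one over all 4, and the shares of all transcripts were not computed with a library left out.

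The lowest CVs of RPKM among the 61 members with a mean of at least 50 reads belonged to S25, S30 and S17. The S25 transcript LOC_Os11g05562.1 had an RPKM of 41.3, 30.5, 31.1 and 28.6 in the order given above, a mean of 32.9 ± 5.72 (SD, n = 4) and a CV of 0.174. The S30 transcript LOC_Os02g56014.1 had 24.6, 16.7, 15.7 and 17.8, with a CV of 0.216. The S17 transcripts LOC_Os03g01900.1 and LOC_Os10g27190.1, of a head protein, had CVs of 0.248 and 0.303. Without control replicate 1 these 4 CVs were 0.044, 0.061, 0.169 and 0.151, and that of the S25 transcript was 0.205 without high temperature replicate 1. Control replicate 1 had the highest RPKM in each of these 4 as well. The ranking depended on the scale. In TMM-normalized CPM the lowest CVs among the 61 were 0.065 (S17, LOC_Os03g01900.1), 0.072 (S26, LOC_Os01g60790.1) and 0.074 (S3a, LOC_Os12g21798.1). On that scale the S25 transcript LOC_Os11g05562.1 had 0.190 and the S30 transcript 0.143.

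The highest CVs among these 61 were 0.7497 for S21 (LOC_Os03g46490.1), 0.695 for S27 (LOC_Os04g32710.1), and 0.694 and 0.686 for the S7 transcripts LOC_Os03g18570.1 and LOC_Os03g18580.1. S21 had an RPKM of 19.3 and 3.03 in the controls, and of 4.97 and 12.4 at high temperature. S27, a zinc-binding protein of the body, had 124.4 and 33.4, then 29.05 and 66.3. In both, control replicate 1 was highest, followed by high temperature replicate 2.

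The column headed RPKM for control replicate 1 holds the CPM multiplied by the length in kilobases, where RPKM divides by it. The transcripts of 40S proteins are short: the median length of the 68 with reads is 894.5 bases, and 48 of them are shorter than 1000 bases. For the 68, the deposited value was from 0.0292 to 3.66 times the RPKM computed from the reads, with a median of 0.8001. With that column as deposited, 4 members had a CV below 0.2, against 1.46% of all transcripts with reads, and the 1 member below 0.2 by its reads was not among them. The CV was lower as deposited for 44 of the 48 shorter members and higher for all 20 longer ones. The count of 20 was fixed by the arithmetic: control replicate 1 was already the highest library in each, and the deposited value raises it further. The S25 transcript LOC_Os09g39540.1, of 624 bases, had a CV of 0.497 from its reads and of 0.117 as deposited. The S3a transcript LOC_Os03g10340.1, of 1914 bases, had 0.480 and 1.28.

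**Figure D5:**
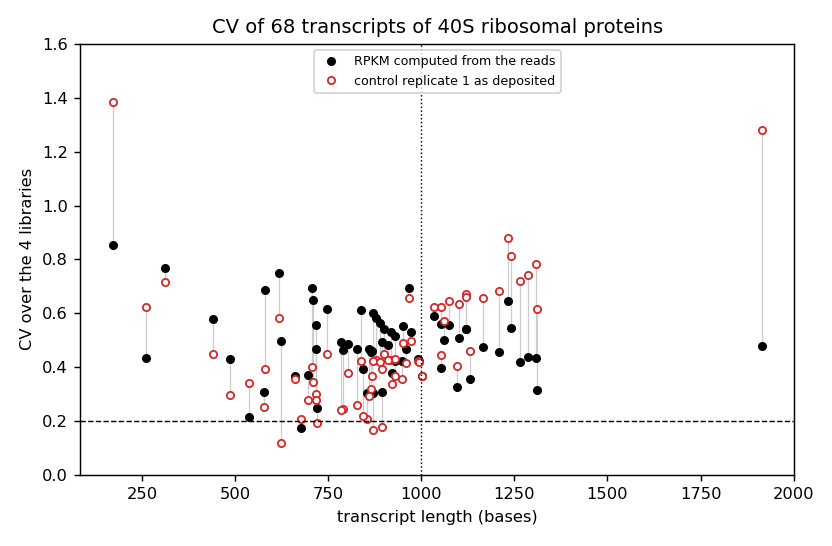
CV over the 4 libraries (vertical axis) against transcript length in bases for the 68 transcripts of 40S proteins, from RPKM computed from the reads (black) and with the column of control replicate 1 as deposited (red circles); the dashed line is a CV of 0.2 and the dotted line a length of 1000 bases. The median CV is 0.478 from the reads, and the red circles lie below the black points for most shorter transcripts and above them for the longer ones.

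The summed reads of the transcripts of 60S proteins (107 by their descriptions, 103 tested) were close to those of the transcripts of 40S proteins (70) in every library. The ratio of 40S to 60S reads was 0.939 and 0.971 in the controls, and 0.929 and 0.914 at high temperature. The median log2 fold change of the 60S transcripts was -0.36 with all libraries and 0.0057 without control replicate 1, and 83 of 103 lay below 0. None was called by edgeR, and 6 had an unadjusted p under 0.05, against 6.94% of all transcripts tested. Of the 6, 5 were lower at high temperature, against 2.79% of all transcripts. The ratio is a description over 2 lists of unlike size, so it does not measure the balance of the subunits, and the lists do not hold every ribosomal protein.

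Initiation factors and genes that make ribosomes had medians closer to 0, a difference that was not tested. In each list edgeR called 0 transcripts, with 0 at an unadjusted p under 0.05. Subunits of initiation factor 3, which binds the 40S subunit directly, had a median log2 fold change of -0.037 over 15 tested transcripts, with 9 below 0. It was 0.20 without control replicate 1 and -0.24 without control replicate 2. Their summed level was 841 and 373 CPM of raw reads in the controls, and 489.5 and 636 at high temperature, an order shared with the 40S transcripts. Initiation factors 1, 2, 4 and 5 by their descriptions, some of which bring the initiator tRNA or the mRNA, had a median of -0.13 over 32, with 22 below 0. Genes of ribosome making (fibrillarin, nucleolar and rRNA processing proteins) had a median of -0.042 over 55, with 32 below 0. After TMM normalization the controls of this last list were at 634 and 670 CPM, while those of the 40S transcripts were at 3617 and 2477. No description held both ubiquitin and a ribosomal word, so the list of ubiquitin fusions was empty.

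The small subunit of the ribosomes of chloroplasts and mitochondria (30S) stood in another order than the 40S subunit. Its 54 transcripts summed to 311 and 454 CPM of raw reads in the controls, and to 292 and 183 at high temperature, with the highest sum in control replicate 2. Of 52 tested, 41 lay below 0, with a median log2 fold change of -0.41. None was called by edgeR, and 8 had an unadjusted p under 0.05, against 6.94% of all transcripts tested. All 8 were lower at high temperature, as were 2.79% of all transcripts at this level. The median was -1.15 when control replicate 1 was left out and -1.44 when high temperature replicate 1 was. It was 0.19 without control replicate 2 and 0.11 without high temperature replicate 2, so its direction rested on single libraries.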

How the data were processed

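The authors deposited 1 table for the 4 libraries, with raw read counts per transcript model. The paper describes them as uniquely mapped reads that overlapped exons; the aligner, the genome build and the annotation release are not given in the sources used here. Beside the counts the authors deposited a value headed RPKM, whose column for control replicate 1 is multiplied by length. RPKM was therefore computed from the counts. NA cells were read as 0, and 0 columns of values were left unused. Groups and replicate numbers came from the sample titles.

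Counts were tested with edgeR 4.0.16 in R 4.3.3 (TMM, quasi-likelihood test, no replicate block, Benjamini-Hochberg adjustment over 27358 transcripts), after a filter of at least 1 CPM in 2 libraries. Standard errors were obtained from the F statistic. The common dispersion was 0.0746. Alternatives used DESeq2 1.42.0 and limma 3.58.1 on log2(RPKM + 1) and log2(RPKM + 0.1). Summaries used Python 3.11.15, pandas 2.3.3 and scipy 1.17.1. In simulated counts, the edgeR script recovered 90.5% of 200 changed transcripts and called 6 others of 26485. This share checks the script and holds only for the changes that were simulated. It does not give the power to find changes as small as those of the members. Their log2 fold changes had a median of -0.35, with a median standard error of 0.33.

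Members and lists were chosen with earlier results of these data known. Values in every library are given for the 8 most abundant members, the 6 with the lowest p, the 3 largest and 3 smallest fold changes, and the 4 lowest and 4 highest CVs at a mean of at least 50 reads, and for families the gene whose most-read model had the most reads. The columns hold no positions, and 0 of the IDs were found in the gene table supplied, so none are given.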

Additional observations from a re-analysis of the deposited data

How the results depend on the processing

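Precision is limited by having only 2 libraries at each temperature. No alternative called a 40S transcript. Over all transcripts the count of calls was 0 in the fit reported, 58 with DESeq2, 365 without the filter on low counts, 59 with limma on log2(RPKM + 1), 78 with limma on log2(RPKM + 0.1), and from 0 to 354 as single libraries were left out (42 without control replicate 1, 354 without control replicate 2). The median log2 fold change of the 40S transcripts ran from -0.62 to -0.012 as single libraries were left out, and from -0.47 to -0.30 under the other settings. The count of members below both controls in both high temperature libraries, whose alternatives were chosen after the levels were seen, was 1 with no TMM, 4 with totals without the pair of most-read transcripts, and from 24 to 61 as single libraries were left out. With a single library left at a temperature, separation is easier, so the counts from 24 to 61 cannot be set against the others. The count of CVs below 0.2 was 1 in the values reported, 4 with control replicate 1 as deposited, 18 with TMM factors, 15 with the median of ratios, 2 with the SD with n, and from 0 to 19 as single libraries were left out. CVs with a library left out cannot be set against those over all libraries. The shares of all transcripts were not computed for them, for the median of ratios or for the SD with n. Of the 10 members named for their p or the size of their fold change, 2 changed sign without single libraries: LOC_Os11g41610.1 ran from -0.089 (without control replicate 2) to 1.14, and LOC_Os05g27940.1 from -0.026 (without control replicate 2) and -0.011 (without high temperature replicate 2) to 0.36. Without control replicate 1 or without high temperature replicate 2, LOC_Os11g41610.1 did not pass the filter on low counts and has no value.

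The labels do not say whether libraries with the same replicate number were paired, and the fit reported used no replicate block. With the replicate block, 0 transcripts and 0 members were called, and the 40S median was -0.31. The deviations of the replicates correlated at -0.36 over all transcripts tested, and a crossed replicate block, chosen after this was seen, called 828 transcripts and 0 members. With so few libraries, this correlation cannot settle whether any were paired.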
